A study of Rattus norvegicus with 30 samples.

Results

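Brain RNA-seq was compared between 2 sets of amylin knockout (AKO) rats that carry the same genotype label but differ in the letters of their animal number. Among the 30 rats of the series, 10 are labelled AKO. Of these, 4 have a number with KAH (4KAH27, 4KAH35, 6KAH98 and 6KAH99, KAH-numbered rats) and 6 have a number with AKO (6AKO35, 6AKO52, 7AKO19, 7AKO28, 7AKO30 and 7AKO42, AKO-numbered rats). The labels do not say what the letters or the leading digit stand for, and nothing used to choose the rats is a measurement. The other rats are 10 wild type (WT) rats and 10 HIP rats, a strain that carries the human amylin gene and expresses it in β-cells of the pancreas. All are males on a normal diet. The paper gives an age for the WT and HIP rats it sequenced. The ages of the knockout rats of this experiment are not given in the sources used here. A difference in age, litter, housing or dissection between the 2 sets cannot be told apart from the number. All WT rats have 10RT numbers and no knockout rat does. Such differences therefore cannot be told apart from genotype when either set is compared with WT. The tissue is called frontal cortex in the labels and cerebral cortex or hippocampus in the paper. The amylin gene, Iapp, was not analysed here, so the knockout itself was not checked.

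Amylin is a peptide hormone that pancreatic β-cells release together with insulin. It acts through the calcitonin receptor (Calcr) paired with a receptor activity modifying protein (Ramp1, Ramp2 or Ramp3). The related peptide CGRP acts through Calcrl paired with Ramp1. Immediate early genes are transcribed within minutes of neuronal firing. MHC class II molecules present peptides on microglia, macrophages and other antigen-presenting cells.

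The deposited values are normalized read counts for 17134 genes. Estimated reads on genes (M, mega) were 12.9 to 16.9 M in KAH-numbered rats and 14.7 to 23.6 M in AKO-numbered rats, 14.7 ± 1.71 M (SD, n = 4) vs. 18.5 ± 3.48 M (SD, n = 6). This difference did not pass a two-sided exact permutation test (p = 0.0762, where 0.00952 is the smallest value the design allows). Replicates are separate rats by their numbers. Fewer cells of a type and less RNA per cell cannot be told apart in bulk tissue.

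Several libraries stood apart before any comparison. Rats 4KAH27 and 6KAH98 held the highest or lowest value of the 10 rats in 36% and 51.2% of the tested genes, whereas the 6 AKO-numbered rats did so in 4.86% to 28%. The genes that mark these libraries (Csf3, Ccl2, Gdf15, Lbp, Drd2, Omp and Ttr) were named after their values were seen. The acute phase and cytokine genes Csf3, Ccl2 and Gdf15 were at 41.1, 248 and 286 normalized counts in 4KAH27 and at most 1.09, 12.6 and 4.89 in the other 9 rats. Lbp, the lipopolysaccharide binding protein, was at 1077 in 4KAH27 and at most 47.97 elsewhere. Markers of neighbouring tissue were uneven in both sets. Drd2, the dopamine receptor of striatal neurons, was at 620 in 4KAH27, 410 in 4KAH35 and 314 in 7AKO28, and between 53.6 and 133.04 in the other 7 rats. Omp, an olfactory sensory neuron gene, was at 2451 in 4KAH35 and 1137 in 6AKO35 and at most 41.6 elsewhere. Ttr, made by the choroid plexus, was at 3445 in 7AKO19 and at most 35.4 elsewhere. The excitatory neuron list had mean log2 values of 11.2 to 11.7 in KAH-numbered rats and 11.1 to 11.9 in AKO-numbered rats, and the neocortical layer list 9.43 to 9.93 and 9.67 to 10.1, so each of the 10 libraries carried these neuron genes. Among the WT rats, which serve as a reference below, 10RT43 had a cerebellum list mean of 12.87 (4.78 to 5.47 in the other 9), a neocortical layer mean of 6.74 (9.72 to 10.3) and an excitatory neuron mean of 8.23 (11.2 to 12.0). Its library, rich in cerebellum genes and low in cortical ones, went against its label, and WT values that rest on it are given with and without it. Of the HIP rats, 12RT23 had a cerebellum mean of 9.925 and 10RT46 a choroid plexus mean of 8.53. The KAH-numbered rats also varied more among themselves. The median SD of a gene was 0.43 on the log2(normalized count + 1) scale in the 4 KAH-numbered rats and 0.23 in the 6 AKO-numbered rats. It was 0.17 between 4KAH35 and 6KAH99, the KAH-numbered rats left without 4KAH27 and 6KAH98. A median SD from 2 rats runs low, and the 2 most extreme libraries were removed to obtain it. The 0.17 therefore does not show that this pair was closer than the AKO-numbered rats.

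**Figure D1:**
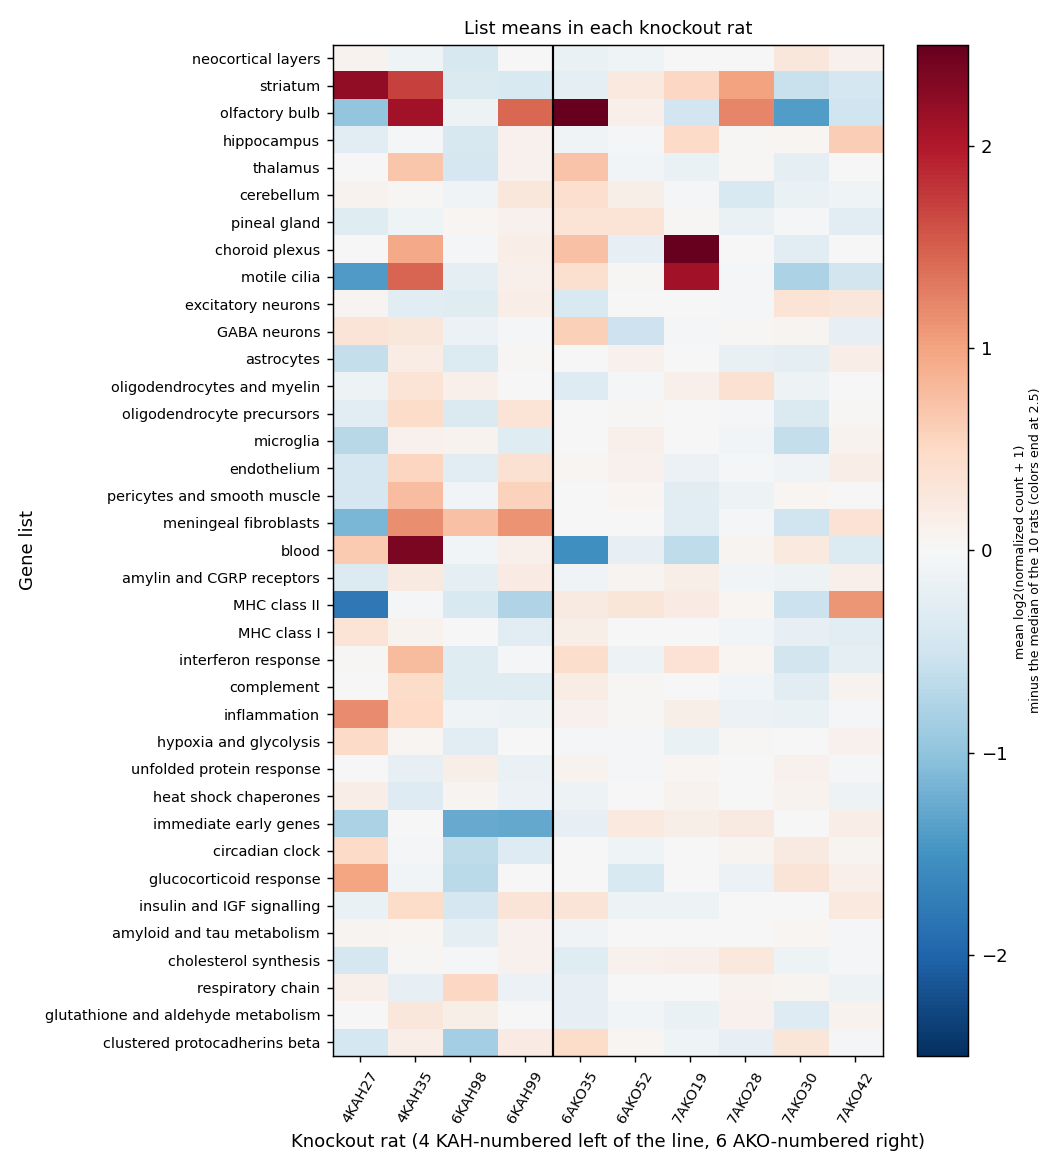
Mean log2(normalized count + 1) of each of 37 gene lists (rows) in each knockout rat (columns), minus the median of the 10 rats, in color. The striatum list is high in 4KAH27 and 4KAH35, the olfactory bulb list in 4KAH35 and 6AKO35, the choroid plexus list in 7AKO19, the blood list in 4KAH35, and the immediate early gene list is low in 6KAH98 and 6KAH99.

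The question of this comparison is whether rats with one genotype label but different number letters had the same brain transcripts. Of 17030 genes (mean of 1 or more over the 10 rats), 1 differed at an adjusted p-value under 0.05, which is 0.00587% of the genes tested (limma, two-sided, Benjamini-Hochberg). The gene, known by the identifier ENSRNOG00000064950 alone, was higher in the KAH-numbered rats. Without 4KAH27 and 6KAH98 the count was 5, and without 4KAH35, 6AKO35 and 7AKO19, the rats with the highest olfactory bulb or choroid plexus means, it was 3 (both chosen after seeing the data). With 1 rat left out it was 8 without 4KAH27, 6 without 4KAH35 and 2 without 7AKO19, and 1 in the other cases. At an unadjusted p-value under 0.05, 834 genes or 4.9% differed, 453 higher (2.66%) and 381 lower (2.24%) in KAH-numbered rats, where 852 would pass if no gene differed and the tests were exact. In 99 genes (0.581%) every KAH-numbered rat lay above every AKO-numbered rat, and in 78 genes (0.458%) every one lay below. If no gene differed, each order would hold in about 1 of 210 genes, by the splits of 10 rats into 4 and 6. The median log2 difference over all tested genes was −0.02.

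ENSRNOG00000064950 separated the 2 sets without overlap. Its normalized counts were 4374, 3293, 4644 and 4536 in 4KAH27, 4KAH35, 6KAH98 and 6KAH99, and 519, 621, 523, 451, 581 and 415 in 6AKO35, 6AKO52, 7AKO19, 7AKO28, 7AKO30 and 7AKO42. The KAH-numbered mean was 4212 ± 622 (SD, n = 4) and the AKO-numbered mean 518 ± 77.2 (SD, n = 6). The log2 difference was 3.02 ± 0.14 (SE, adjusted p = 8.8e-07, limma). WT rats ranged from 1969 to 4154 and HIP rats from 2106 to 3653, all above the 6 AKO-numbered rats. Against WT rats, the AKO-numbered rats were lower by a log2 difference of −2.59 (adjusted p = 2.18e-08, limma), and the KAH-numbered rats had a log2 difference of 0.43 (adjusted p = 0.418, limma). No rat of any group lay between 621 and 1969. Between the number series that share the digit 6, the difference was the same size, 3.01 with an adjusted p of 0.000739 (limma, 4 series in one fit), and in a fit of those 4 rats alone it was 3.01 with an adjusted p of 0.194 (limma). Without 4KAH27 and 6KAH98 the gene still passed, and it passed under 30 of 31 alternatives with log2 differences from 2.91 to 3.23. The name and function of this gene were not found in the tables used here.

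**Figure D2:**
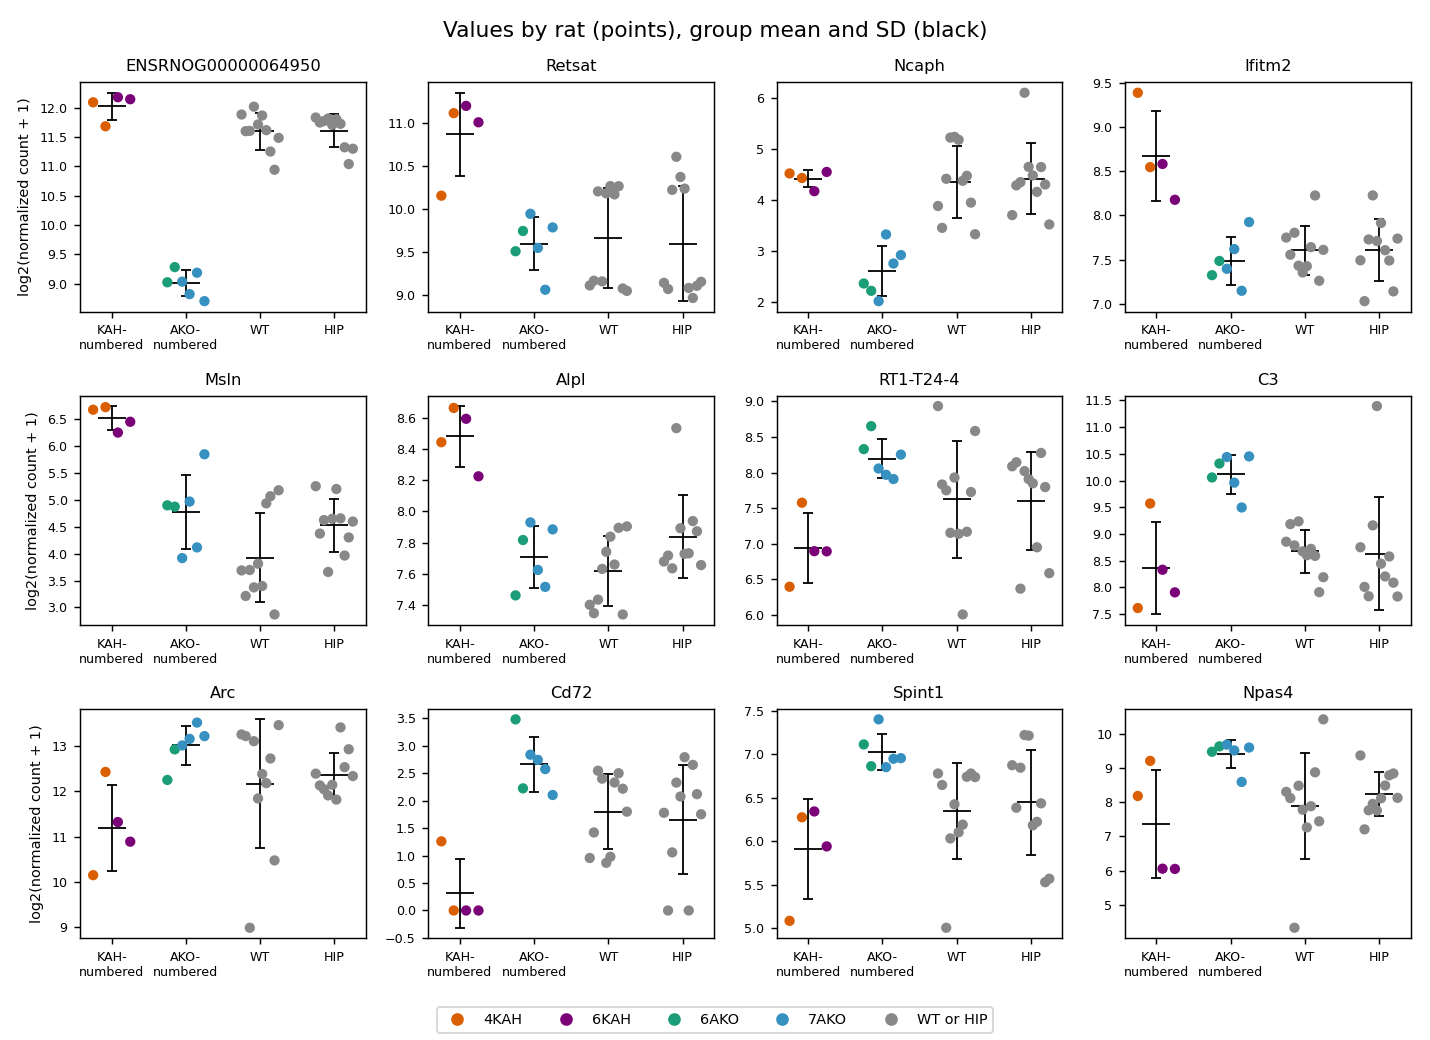
log2(normalized count + 1) of 12 genes in each rat (points, colored by number series in knockout rats), with the mean and SD of each group in black (n = 4 KAH-numbered, 6 AKO-numbered, 10 WT and 10 HIP rats). ENSRNOG00000064950 is low in the 6 AKO-numbered rats only, while Msln, Ifitm2 and Alpl have their highest group mean in KAH-numbered rats.

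The 5 symbols with the smallest p-values among genes higher in KAH-numbered rats did not pass the adjusted threshold, and their adjusted p-value was 0.381 for each (limma). They are given by value. Retsat, retinol saturase, was at 1142, 2222, 2356 and 2064 in the KAH-numbered rats and 535 to 987 in the AKO-numbered rats, a log2 difference of 1.27 ± 0.22 (SE). The lowest of the KAH-numbered rats was 4KAH27, and WT rats spanned 530 to 1234. Ncaph, a subunit of the condensin complex that compacts chromosomes, was at 21.9, 20.5, 17.0 and 22.4 vs. 3.02 to 8.99, a log2 difference of 1.82 ± 0.34. For this gene the AKO-numbered rats were the ones outside the WT range of 9.02 to 36.7, with a log2 difference of −1.76 against WT (adjusted p = 0.0229, limma) and 0.07 for KAH-numbered rats (adjusted p = 0.962).

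Ifitm2, an interferon-induced membrane protein, was at 671, 373, 383 and 288 vs. 140.6 to 242, with 671 in 4KAH27. Msln, mesothelin, a surface protein of mesothelial cells, was at 101.5, 105, 75.3 and 86.7 vs. 14.1 to 56.7. Alpl, the tissue-nonspecific alkaline phosphatase of brain capillaries and bone, was at 347, 404, 385 and 298 vs. 176 to 243. In these 3 genes the KAH-numbered rats lay further from WT than the AKO-numbered rats. No WT rat reached the KAH-numbered range of Msln (WT 6.30 to 35.3) or Alpl (WT 161 to 239), and 1 did for Ifitm2. Their log2 differences from WT rats were 1.07, 2.61 and 0.86 for Ifitm2, Msln and Alpl, each with an adjusted p of 0.0841 (limma). For AKO-numbered rats vs. WT they were −0.12, 0.85 and 0.09, with adjusted p-values of 0.889, 0.644 and 0.898 (limma). The AKO-numbered rats 7AKO42 for Msln (56.7) and 7AKO19 for Alpl (243) also lay above every WT rat. The HIP rat 10RT46 was within the KAH-numbered range for Alpl (369) and Ifitm2 (299). The interferon response list, which does not hold Ifitm2, had a median log2 difference of 0.10 between the 2 sets. Of its 14 tested genes, 0 were higher and 1, Stat2, was lower in KAH-numbered rats at an unadjusted p under 0.05. Over all genes these shares were 2.66% and 2.24%.

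Genes lower in KAH-numbered rats gave a less uniform picture. RT1-T24-4, a rat MHC class I gene, was at 83.2, 190, 118 and 118 in KAH-numbered rats and 239 to 401 in AKO-numbered rats, without overlap, while WT rats covered both ranges (63.2 to 488). The log2 difference was −1.25 ± 0.22 (SE, adjusted p = 0.381, limma). As a member of a family of near-identical genes, its reads may be shared with other copies. The MHC class I list as a whole did not go this way. Of its 11 tested genes, 8 had a positive log2 difference and 3 a negative one, with a median of 0.15. Of all 17030 genes, 8004 were positive and 9026 negative. At an unadjusted p under 0.05, 3 were higher and 3 lower, beside 2.66% and 2.24% of all genes. C3, the central complement component, was at 195, 759, 321 and 239 vs. 721 to 1400, overlapping through 4KAH35 and 7AKO30, a log2 difference of −1.77 ± 0.33 (adjusted p = 0.381, limma). Here the AKO-numbered rats were above every WT rat (240 to 602), by a log2 difference of 1.45 (adjusted p = 0.00148, limma), and the KAH-numbered rats differed from WT by −0.32 (adjusted p = 0.716, limma). Without 4KAH35, C3 had a log2 difference of −2.17 between the 2 sets and an adjusted p of 0.00529 (limma). That fit leaves out the only KAH-numbered rat within the AKO-numbered range, so it adds no separate support. The complement list had a median log2 difference of 0.04, with 8 of 13 genes positive, beside 8004 of all 17030 genes tested. At an unadjusted p under 0.05, C1r was higher and C3 lower, beside 2.66% and 2.24% of all genes.

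Cd72, a receptor of B cells, was at 1.39 in 4KAH27 and 0 in the other 3 KAH-numbered rats, and at 3.29 to 10.1 in the AKO-numbered rats. The KAH-numbered values amount to about 1 read in a single rat, so no fold change is given. Spint1, an inhibitor of serine proteases of epithelia, was at 32.9, 76.5, 80.2 and 60.4 vs. 115 to 168, without overlap, a log2 difference of −1.11 ± 0.25 (SE, adjusted p = 0.472, limma). The highest WT rat was at 109, below the lowest AKO-numbered rat, with a log2 difference between AKO-numbered and WT rats of 0.68 that did not pass (adjusted p = 0.364, limma). The KAH-numbered rats lay within the WT range only through 10RT43, at 31.1. The other 9 WT rats were at 64.5 to 109, and 2 KAH-numbered rats, 4KAH27 and 6KAH99, lay below them. Without 10RT43 the log2 differences from WT were 0.53 for AKO-numbered rats (adjusted p = 0.122, limma) and −0.58 for KAH-numbered rats (adjusted p = 0.320, limma).

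**Figure D3:**
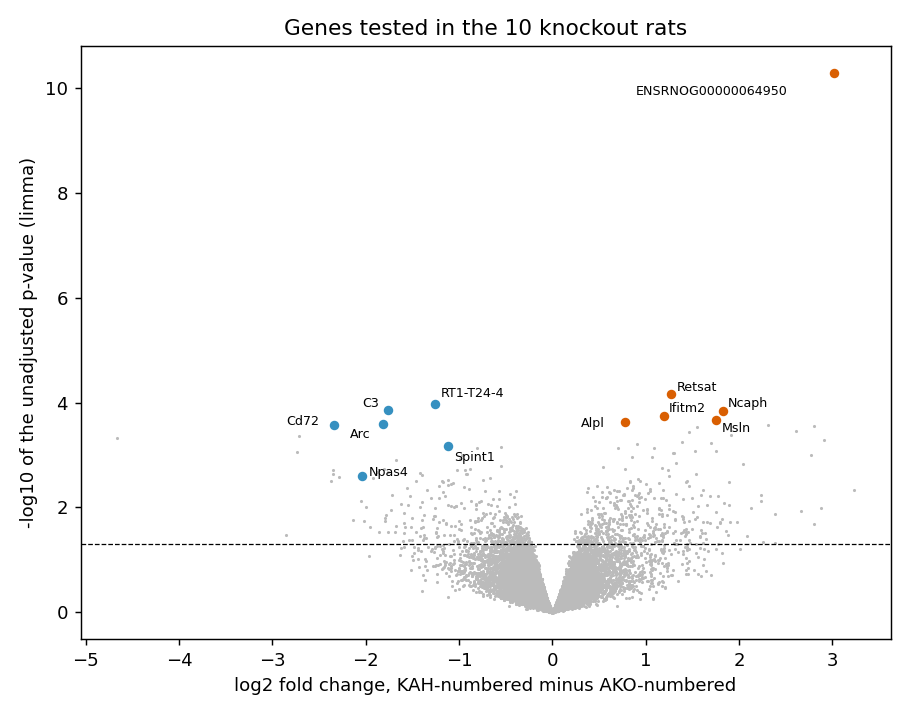
Each point is 1 of 17030 genes, with the log2 difference between KAH-numbered and AKO-numbered rats on the x axis and the −log10 of the unadjusted limma p-value on the y axis. The dashed line marks an unadjusted p of 0.05, and 12 genes are named, among which ENSRNOG00000064950 stands alone at a log2 difference of 3.02.

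Some transcripts split the KAH-numbered set itself. ENSRNOG00000062487 was at 100.1 in 4KAH27 and at 1.14, 1.21 and 0 in 4KAH35, 6KAH98 and 6KAH99, while the AKO-numbered rats were at 74.4 to 163. Among WT rats, 7 were at 0 to 1.04 and 3 at 40.3 to 64.8, and among HIP rats 9 were at 0 to 3.88 and 1 was at 43.2. ENSRNOG00000062554 had the same order, with 75.4 in 4KAH27, 13.7, 4.86 and 9.75 in the other 3 and 68.7 to 165 in the AKO-numbered rats. Both had adjusted p-values over 0.05 with 4KAH27 (0.455 and 0.433, limma), and 2.76e-05 and 0.00629 without that rat. The smaller values come from leaving out the rat that broke the pattern, so they add no separate support. Of all tested genes, these 2 were the only ones in which 4KAH27 lay within the AKO-numbered range and the other 3 rats more than 2 log2 units below it, and no gene had that pattern for 4KAH35, 6KAH98 or 6KAH99. Ephx2, described at the end and named after its values were seen, was not counted for 4KAH35. That rat, at 213, lay above the AKO-numbered range of 113 to 196, and the other 3 were at most 24.7. The opposite order, with the other 3 rats more than 2 log2 units above, was held by 1 gene for 4KAH27. A further pair of genes, named after their values were seen, had the same order with a smaller gap. RT1-CE16, an MHC class I gene, was at 314 in 4KAH27, 26.4 to 51.97 in the other 3 and 189 to 829.4 in AKO-numbered rats. AABR07044383.1 was at 52.1 in 4KAH27, 2.52 to 9.02 in the other 3 and 33.8 to 101 in AKO-numbered rats. The second identifier on the higher side, ENSRNOG00000066565, was at 155.5, 135.5, 93.2 and 127 in KAH-numbered rats and at 28.2 to 39.6 in 5 AKO-numbered rats, but at 117 in 7AKO19. Its adjusted p was 0.490 with that rat and 0.0383 without it (limma), which again leaves out the rat that overlaps.

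A fit of all 30 rats, which estimates the spread from the WT and HIP rats too, called 8 genes between the 2 sets. They included ENSRNOG00000064950, Ifitm2 and Alpl, and also Prmt1, Steap4, Tuft1 and Nadsyn1, named after their values were seen. Prmt1, an arginine methyltransferase, was at 606, 400, 565 and 386 in KAH-numbered rats and 203 to 355 in AKO-numbered rats, and at 372 to 519 in WT rats. Its AKO-numbered rats lay below the WT range, with a log2 difference from WT of −0.79 (adjusted p = 0.00336, limma). Steap4, a metalloreductase of the plasma membrane, was at 71.3, 54.8, 15.8 and 20.5 vs. 4.09 to 23.98, so its ranges overlapped. AKO-numbered rats differed from WT by −1.97 (adjusted p = 0.00348, limma), and by −2.05 without 10RT43, the lowest WT rat (adjusted p = 0.00122, limma). Tuft1 was at 31.5, 15.98, 4.86 and 19.5 vs. 37.1 to 63.8, and WT rats at 30.6 to 78.9, or to 55.3 without 10RT43. Nadsyn1, the NAD synthetase, was at 32.9, 62.8, 77.8 and 52.6 vs. 83.2 to 128. In the 10-rat fit none of these 4 genes passed, with adjusted p-values from 0.472 for Prmt1 to 0.746 for Steap4 (limma).

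Immediate early genes were the list in which all tested members had a negative log2 difference, 11 of 11, beside 9026 of all 17030 genes. The list median was −0.82 against −0.02 over all genes tested. None of the 11 passed the adjusted threshold. At an unadjusted p under 0.05, 6 of 11 were lower in KAH-numbered rats and 0 higher, beside 2.24% of all genes. The lists are described by such counts, without a test of the list. Arc, a protein that traffics glutamate receptors at synapses, was at 1136, 5527, 2565 and 1898 in KAH-numbered rats and 4888, 7806, 8291, 9169, 11772 and 9562 in AKO-numbered rats. Its log2 difference was −1.82 ± 0.36 (SE, adjusted p = 0.381, limma), and 4KAH35 was the only KAH-numbered rat within the AKO-numbered range. Without 4KAH35, the rat that overlaps, it was −2.23 with an adjusted p of 0.0202 (limma), which adds no separate support. Egr1, a zinc finger transcription factor, was at 2559, 7328, 3403 and 3775 vs. 6976 to 8791. Fosb was at 387, 653, 249 and 368 vs. 628 to 1051.

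The members differed in which KAH-numbered rats were low. In 9 of the 11 genes both 6KAH98 and 6KAH99 lay below all AKO-numbered rats, which was so for 3.68% of all genes tested. Rat 4KAH27 was below in 6 of 11 (27.1% of all genes), and 4KAH35 in 0 (17.9%). Npas4, a transcription factor induced by calcium influx in neurons, was at 65.6 in 6KAH98 and 65.3 in 6KAH99, at 289 in 4KAH27 and 590 in 4KAH35, and at 385 to 820 in AKO-numbered rats. Fos was at 288 and 325 in the 6KAH rats, 946 and 1417 in the 4KAH rats, and 750 to 1330 in the AKO-numbered rats. The mean log2 value of the list was 9.10 in 6KAH99, 9.12 in 6KAH98, 9.60 in 4KAH27 and 10.4 in 4KAH35, and 10.2 to 10.6 in AKO-numbered rats. WT rats covered all of these values, from 7.28 in 10RT43 or 8.81 in the other 9 to 11.3. Gene by gene this held less well without 10RT43. Npas4 was at 19.1 in 10RT43 and at 152.6 or more in the other 9 WT rats, above both 6KAH rats. Arc was at 507 in 10RT43 and at 1424 or more in the others, above 4KAH27.

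**Figure D4:**
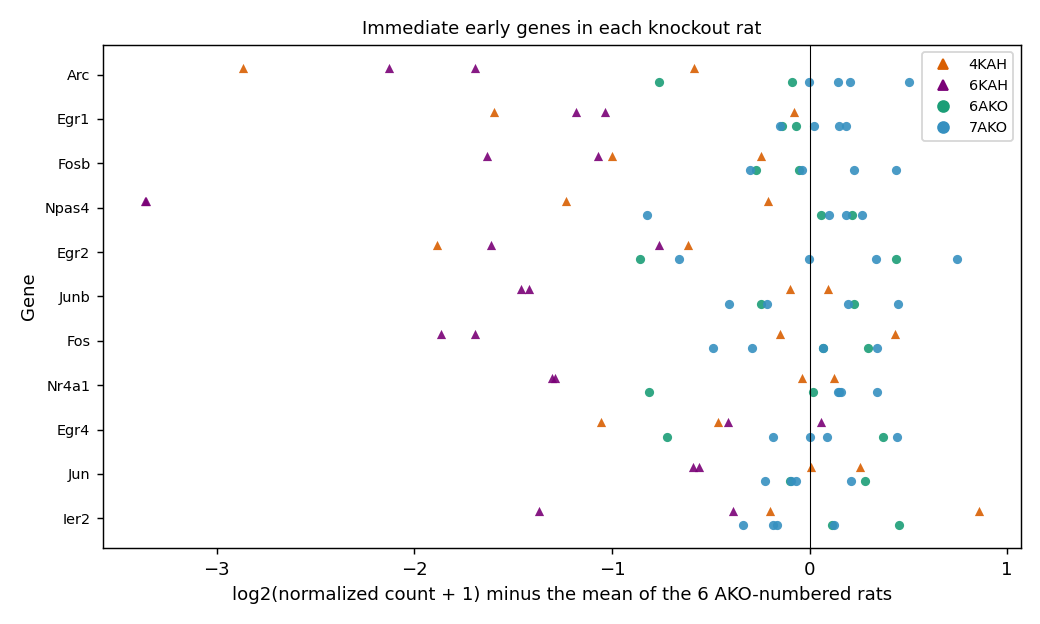
log2(normalized count + 1) of 11 immediate early genes in each knockout rat, minus the mean of the 6 AKO-numbered rats (triangles, KAH-numbered; circles, AKO-numbered). The 6KAH rats lie left of every AKO-numbered rat in 9 of 11 genes, while 4KAH35 lies among the AKO-numbered rats or to their right in each gene.

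The promoters of these genes show which sequences they share. CREB binds the letters TGACG, a part of the cAMP response element, and serum response factor binds the CArG box. Of the 11 tested genes, 8 had a promoter in the RefSeq table used here (GRCr8), and 6 of 8 held TGACG on either strand in the 250 bases before the start, against 18.2% of 33469 promoters. A CArG box was found in 2 of 8, Egr1 and Egr2, against 1.5% of all promoters, and it overlapped no TGACG. Below are the bases from 150 to 31 before the start of 3 of these genes, 5′ to 3′ along the gene, with TGACG, or its reverse complement, and the CArG box in capitals (in Ier2 both strands overlap). They were picked to show a promoter with both motifs (Egr2) and with TGACG alone (Nr4a1 and Ier2).
Egr2: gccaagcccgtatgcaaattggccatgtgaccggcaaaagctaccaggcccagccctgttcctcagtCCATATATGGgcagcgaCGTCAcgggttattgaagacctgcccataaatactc
Nr4a1: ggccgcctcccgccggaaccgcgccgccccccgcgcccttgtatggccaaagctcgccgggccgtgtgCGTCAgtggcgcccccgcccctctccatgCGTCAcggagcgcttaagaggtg
Ier2: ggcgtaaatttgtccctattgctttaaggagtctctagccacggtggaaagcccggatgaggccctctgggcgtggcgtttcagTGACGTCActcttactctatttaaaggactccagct
The members with these letters did not behave alike. Egr2 was at 135.8, 329, 164 and 296 in KAH-numbered rats and 278 to 845 in AKO-numbered rats, with a log2 difference of −1.22 ± 0.34 (SE, adjusted p = 0.794, limma). Nr4a1, an orphan nuclear receptor, was at 2862, 3201, 1191 and 1201 vs. 1671 to 3727. Ier2 was at 314, 655, 276 and 139.4 vs. 286 to 494. Npas4 and Fosb had neither motif in this window, which says only that the letters are not there.

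MHC class II genes had the most negative median log2 difference of the 37 lists, −1.28 over 10 tested members. None passed the adjusted threshold. At an unadjusted p under 0.05, 6 of 10 were lower in KAH-numbered rats (RT1-Db1, Cd74, RT1-Ba, RT1-Bb, RT1-Da and RT1-DOb) beside 2.24% of all genes, and 0 higher beside 2.66%. Cd74, the invariant chain, was at 214, 792, 605 and 454 in KAH-numbered rats and 1296, 1438, 1078, 1043, 551 and 2294 in AKO-numbered rats, a log2 difference of −1.34 ± 0.39 (SE, adjusted p = 0.796, limma). The sets overlapped through 7AKO30. RT1-Db1, a class II beta chain, was at 39.8, 85.6, 76.5 and 70.2 vs. 70.3 to 317, and RT1-Ba, an alpha chain, at 8.23, 126, 79.0 and 88.7 vs. 102 to 539. Rat 4KAH27 was lowest in each of the 3. The peptide-loading genes RT1-DMa and RT1-DMb had log2 differences of 0.07 and −0.07. The list mean was 4.62 in 4KAH27, 5.65 in 6KAH99, 6.03 in 6KAH98 and 6.35 in 4KAH35, against 5.87 to 7.51 in AKO-numbered rats and 4.67 to 5.80 in WT rats. Relative to WT, Cd74 was higher in AKO-numbered rats by a log2 difference of 1.68 (adjusted p = 0.0231, limma) and had a log2 difference of 0.34 in KAH-numbered rats (adjusted p = 0.754, limma). The highest WT rat for Cd74 was 10RT43. Without it these differences were 1.80 (adjusted p = 0.00367, limma) and 0.46 (adjusted p = 0.543, limma). The microglia list, whose cells carry these genes, had means of 8.45 to 9.24 in KAH-numbered rats and 8.54 to 9.27 in AKO-numbered rats, with the lowest value in 4KAH27. The part of the number of microglia or macrophages in the class II values was not tested.

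Genes of blood and of the meninges were on the higher side in KAH-numbered rats. Of the 4 blood genes tested, 3 were higher at an unadjusted p under 0.05 (Hba-a2, Hbb-b1 and Slc4a1) beside 2.66% of all genes, with a list median of 1.27 and none past the adjusted threshold. Hba-a2, an alpha globin, was at 16021, 40576, 10232 and 7548 in KAH-numbered rats and 2847 to 9755 in AKO-numbered rats, with the highest value in 4KAH35. All 8 meningeal fibroblast genes had a positive log2 difference (median 0.55), beside 8004 of all 17030 genes tested. Of the 8, 1 (Slc6a13) was higher at an unadjusted p under 0.05, beside 2.66% of all genes. Col1a1, a collagen of fibroblasts, was at 86.4, 756, 779 and 1062 vs. 243 to 507. It was above all AKO-numbered rats in 4KAH35, 6KAH98 and 6KAH99 and below them all in 4KAH27. In 7 of the 8 genes 4KAH27 was below every AKO-numbered rat, which was so for 27.1% of all genes tested. With the mean of the meningeal list as a covariate, 89 of 17030 genes differed between the sets at an adjusted p under 0.05 (20 higher, 69 lower). This alternative was added after the data were seen. The list mean was 7.05 in 4KAH27, 8.91 to 9.36 in the other KAH-numbered rats and 7.69 to 8.55 in AKO-numbered rats. The covariate thus also sets 4KAH27 apart, and this count is no measure of meninges. The part of meninges in the dissected tissue was not tested.

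**Figure D5:**
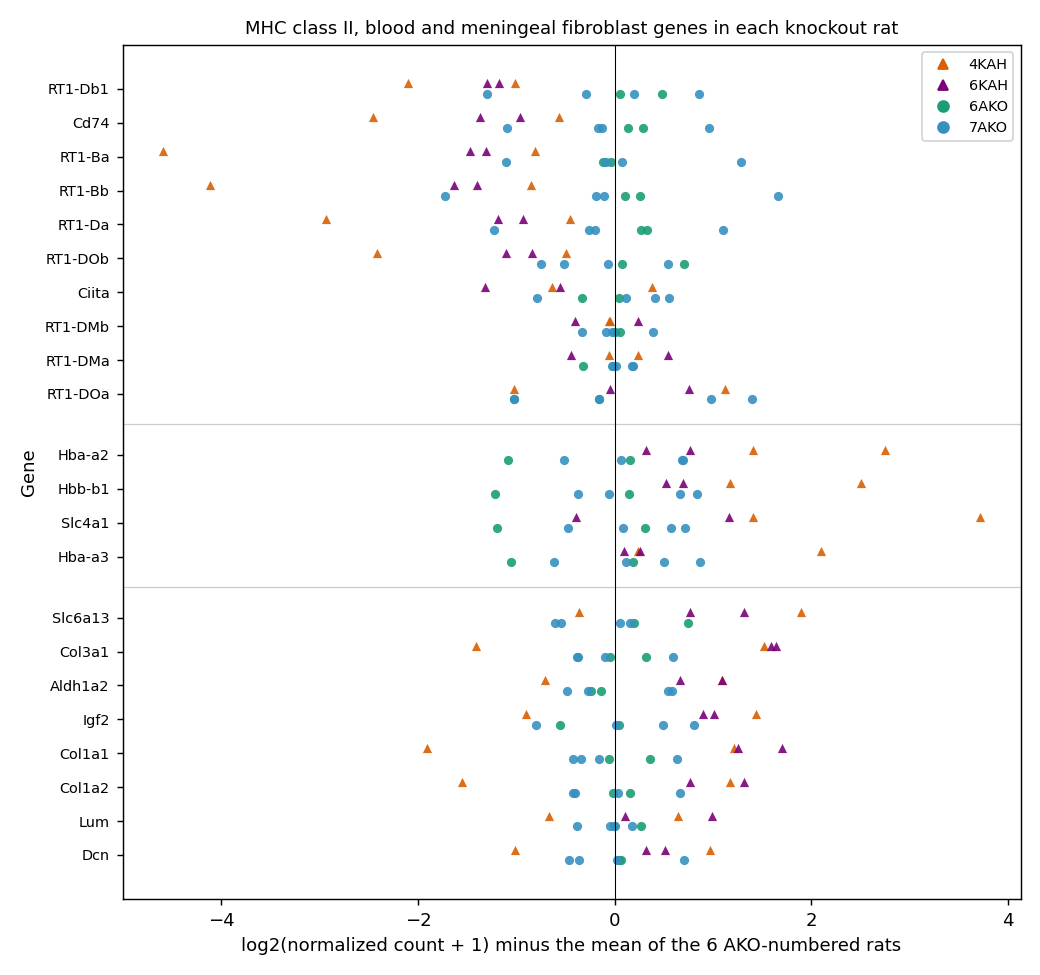
log2(normalized count + 1) of 10 MHC class II genes (top), 4 blood genes (middle) and 8 meningeal fibroblast genes (bottom) in each knockout rat, minus the mean of the 6 AKO-numbered rats (triangles, KAH-numbered; circles, AKO-numbered). One 4KAH rat, 4KAH27, is lowest in 6 MHC class II genes and in 7 meningeal genes, and the other, 4KAH35, is highest in all 4 blood genes. Over all genes tested, 4KAH27 lay below every AKO-numbered rat in 27.1%, and 4KAH35 above every one in 19.1%.

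Other genes without overlap between the 2 sets, named after their values were seen, were of several kinds. The 4 given here were picked from the 99 genes (0.581%) with every KAH-numbered rat on top. About 1 of 210 genes would have that order if no gene differed. Aqp1, a water channel of choroid plexus and mesothelium, was at 385, 542, 356 and 351 in KAH-numbered rats and 77.0 to 245 in AKO-numbered rats, while Ttr was at 2.74 to 35.4 in the KAH-numbered rats. Upk1b, a uroplakin of epithelia, was at 68.6, 21.7, 18.2 and 18.5 vs. 1.01 to 12.0. Cd93, an endothelial surface protein, was at 564, 183, 175 and 308 vs. 85.4 to 131.9. Ifitm1, the relative of Ifitm2, was at 250, 89.0, 79.0 and 58.5 vs. 20.2 to 42.5. The adjusted p-values of these 4 genes were 0.416, 0.416, 0.472 and 0.472 (limma).

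The 2 genes tested of the amylin and CGRP receptor list did not pass the adjusted threshold between the sets. Of the 6 genes listed, Calcrl and Ramp3 were in the table, and Calcr, Ramp1, Ramp2 and Crcp were not analysed here. Without Calcr and Ramp1, neither peptide had a whole receptor among the genes tested. Calcrl was at 69.9, 201, 37.7 and 148.1 in KAH-numbered rats and 79.3 to 167 in AKO-numbered rats, a log2 difference of −0.29 ± 0.40 (SE, adjusted p = 0.906, limma). Ramp3 was at 173, 130, 364 and 175 vs. 102 to 206, a log2 difference of 0.20 ± 0.28 (adjusted p = 0.910, limma). In both genes 6KAH98 was at one end, and without it the signs turned, to 0.14 for Calcrl and −0.10 for Ramp3.

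Across all 37 lists, 384 entries were tested and 0 passed the adjusted threshold. The striatum list had a median log2 difference of 0.79, with 11 of 12 genes positive, beside 8004 of all 17030 genes tested. Its means were 9.74 and 9.24 in 4KAH27 and 4KAH35 and 7.16 and 7.15 in 6KAH98 and 6KAH99, against 6.98 to 8.53 in AKO-numbered rats. The choroid plexus list had a median of −0.64, with 7 of 11 genes negative, beside 9026 of all 17030. Of the 11, 1 (Aqp1) was higher at an unadjusted p under 0.05, beside 2.66% of all genes. The means of this list were 2.71 to 3.69 in KAH-numbered rats and 2.44 to 6.41 in AKO-numbered rats, with the highest in 7AKO19. The inflammation list had a median of 0.36, with 2 of 14 genes, Casp1 and Ccl3, higher at an unadjusted p under 0.05 beside 2.66% of all genes, and its mean was highest in 4KAH27 (5.501). The insulin and IGF, amyloid and tau, glucocorticoid and hypoxia lists had medians of 0.00, −0.06, 0.01 and −0.01.

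The number series allowed 3 further contrasts in 1 fit of the 4 series, with 2 rats each in 4KAH, 6KAH and 6AKO and 4 rats in 7AKO. Between 6KAH and 6AKO rats, 2 genes passed (0.0117%), ENSRNOG00000064950 and Npas4, and 599 genes (3.52%) had an unadjusted p under 0.05. Npas4 was lower in 6KAH rats by a log2 difference of −3.50 (adjusted p = 0.0276, limma), at 65.6 and 65.3 vs. 710 and 793. Between 4KAH and 6KAH rats, 2 genes passed (0.0117%), named after their values were seen, and 1303 (7.65%) had an unadjusted p under 0.05. Zfp36, which promotes the decay of cytokine mRNAs, was at 2139 and 998 in 4KAH rats and 87.5 and 119 in 6KAH rats, a log2 difference of 3.83 (adjusted p = 0.0125, limma). Apold1, an activity-induced gene of endothelium, was at 1840 and 1622 vs. 125 and 191, a log2 difference of 3.47 (adjusted p = 0.0145, limma). In both genes the AKO-numbered rats lay between the 4KAH and 6KAH rats, at 165 to 268 for Zfp36 and 241 to 467 for Apold1. Between 7AKO and 6AKO rats 0 genes passed (0%), with 233 (1.37%) at an unadjusted p under 0.05 (limma).

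The sets were also compared with the 10 WT rats, which both comparisons share. AKO-numbered rats differed from WT rats in 68 of 17036 genes (0.399%), 44 higher and 24 lower, at an adjusted p under 0.05 (limma). KAH-numbered rats differed in 0 of 17051 genes (0%), where the smallest adjusted p was 0.0841 (limma). At an unadjusted p under 0.05 the order was the other way. There, 1793 of 17051 genes differed from WT in KAH-numbered rats and 1269 of 17036 in AKO-numbered rats (limma). Group size (6 and 4 rats) and the spread within the sets differ between these counts. Leaving out the WT rat 10RT43, whose library was rich in cerebellum genes and had the fewest estimated reads of the WT rats, gave 104 and 3 genes. With all 30 rats in one fit the counts were 42 for AKO-numbered and 115 for KAH-numbered rats, so their order turned. With 1 knockout rat left out, the AKO-numbered count was 37 without 6AKO52 or 7AKO19, 43 without 7AKO42 and 44 without 6AKO35, and the KAH-numbered count was 2 without 4KAH35. The direct comparison of the 2 sets, with 1 gene, is the test of their difference.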

How the data were processed

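RNA-seq was measured in 30 rat brain samples, of which the 10 labelled AKO are compared here. Alignment to rn7, counting per Ensembl105 gene and DESeq2 normalization were done by the authors within Partek Flow, and the submitters' processing notes name Partek 10.0.22.0228, STAR 2.7.8a, Bowtie2 and DESeq2. Whether the libraries kept strand is not given in the sources used here. What the authors deposited is a signal, 1 DESeq2-normalized count for each gene and rat, mostly not a whole number. In each rat a step was searched for among values below 100, and 80.9% to 84.6% of them were multiples of it (tolerance 0.02 reads). That is too few to recover reads, so limma on log values was used in place of a count model. Each rat's total divided by its step estimates the reads on genes, 12.9 to 23.6 M in these rats. Counting limits the precision of genes near 1 read.

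Rats were grouped by the letters of their number in the labels. Values were tested as log2(normalized count + 1), which understates changes of low genes, using a two-sided test of limma 3.58.1 (R 4.3.3; variance trend on, no covariates) on every gene whose mean reached 1 in the rats compared. P-values were adjusted over all tested genes by the Benjamini-Hochberg method, with a threshold of 0.05. Fits of the groups against WT used those 2 groups, and the number series were fitted together. Estimated reads were compared by an exact permutation test over 210 splits in Python 3.11.15 with scipy 1.17.1, numpy 2.4.6 and pandas 2.3.3.

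The members, lists and tests were chosen with earlier results of these data known. Genes named are the 5 symbols and up to 2 identifiers with the smallest p-values in each direction, the amylin and CGRP receptor genes, genes passing in the 6KAH vs. 6AKO contrast, and members of the lists described; called genes with a called neighbour or in a list would also have been named, and there were none. Others are marked as named after their values were seen, and 1 gene called in the joint fit is not reported here. The alternatives were pseudocounts of 0.1 and 5, a minimum mean of 10 or none, a joint fit of all 30 rats, robust eBayes, array weights, quantile normalization, median-ratio rescaling, voom on estimated reads, covariates (library number, estimated reads, 3 tissue lists, the leading component of the residuals), the 6KAH and 6AKO rats alone, and each rat left out. Chosen after the data were seen were the blood and meningeal lists as covariates and 2 fits without several rats. Promoters came from RefSeq (GRCr8), and no coordinates were taken from it.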

Additional observations from a re-analysis of the deposited data

Results flagged for a closer look

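In 107 groups of values (17 named genes and 37 list means, in the 4 KAH-numbered and the 6 AKO-numbered rats, without Cd72 in KAH-numbered rats, which was at or under 3 reads), 9 held a rat whose gap to its nearest neighbor was large for the range of the group by Dixon's test, where chance gives about 5.35. In KAH-numbered rats, 4KAH27 stood apart for ENSRNOG00000062487 (100.1 vs. at most 1.21) and ENSRNOG00000062554 (75.4 vs. at most 13.7), and 6KAH98 for the mean of the amyloid and tau metabolism list (10.9 vs. 11.2 to 11.3). In AKO-numbered rats, 7AKO19 stood apart for ENSRNOG00000066565 (117 vs. at most 39.6) and for the choroid plexus list (6.41 vs. at most 3.47), and 6AKO35 for the thalamus list (6.41 vs. at most 5.73). Rat 7AKO30 stood apart on the low side for Npas4 (385 vs. at least 710), the oligodendrocyte precursor list (8.94 vs. at least 9.26) and the microglia list (8.54 vs. at least 9.06).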

How the results depend on the processing

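The count of genes past an adjusted p of 0.05 between the 2 sets was 1 under 13 other settings that left out no single rat and moved to 8 with all 30 rats in one fit, 6 with array weights, 4 with the striatum list and 2 with the olfactory bulb list as a covariate, 0 with the 6KAH and 6AKO rats alone, 5 without 4KAH27 and 6KAH98, 3 without 4KAH35, 6AKO35 and 7AKO19, and 89 with the meningeal list as a covariate. With each rat left out in turn it ranged from 1 to 8 (8 without 4KAH27, 6 without 4KAH35, 2 without 7AKO19). The count at an unadjusted p under 0.05 was 834 and moved to 1418 with all 30 rats, 325 with estimated reads and 1875 with the leading component of the residuals as covariates, 301 with the 6KAH and 6AKO rats alone, 1394 without 4KAH27 and 6KAH98, and 2357 with the meningeal list, and ranged from 605 to 1753 with each rat left out (1753 without 6KAH99). For KAH-numbered rats vs. WT the count was 115 with all 30 rats, 3 without 10RT43 and 0 to 2 with each knockout rat left out (2 without 4KAH35). For AKO-numbered rats vs. WT it was 42 with all 30 rats, 104 without 10RT43 and 37 to 69 with each knockout rat left out (37 without 6AKO52 or 7AKO19, 43 without 7AKO42 and 44 without 6AKO35). For 6KAH vs. 6AKO it was 1 without a filter. ENSRNOG00000064950 did not pass in the 6KAH and 6AKO rats alone. The direction of Calcrl turned under array weights (0.30), with 1 rat left out (−0.65 to 0.14, 0.14 without 6KAH98) and without 4KAH27 and 6KAH98 (0.57), and that of Ramp3 in the same settings (−0.11, −0.10 to 0.39 with −0.10 without 6KAH98, and −0.16). The other 15 genes named by the rule kept their direction under every alternative. The causes of these changes were not tested. No paired analysis was possible because the groups hold different rats and the labels give no pairing.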

Other observations

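Retsat fell into separate levels outside the knockout rats as well. Of the WT rats, 5 were at 530 to 575 and 5 at 1154 to 1234, and of the HIP rats, 6 were at 500 to 570 and 4 at 1197 to 1563. The KAH-numbered rat 4KAH27, at 1142, lay near the upper level of these rats, and the other 3 KAH-numbered rats, at 2064 to 2356, lay above every other rat of the series.

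Ephx2, the soluble epoxide hydrolase, and Ca3, carbonic anhydrase III, were named after their values were seen, because they passed under some alternatives. Ephx2 was at 24.7, 17.0 and 8.77 in 4KAH27, 6KAH98 and 6KAH99 and at 213 in 4KAH35, while AKO-numbered rats were at 113 to 196 and WT rats at 83.3 to 248. It had an adjusted p of 0.746 in all 10 rats (limma) and passed under 2 of 31 alternatives, both of which leave out 4KAH35, with 0.00298 as the lowest value. Ca3 was at 911, 495 and 481 in 4KAH35, 6KAH98 and 6KAH99 and at 93.3 in 4KAH27, while AKO-numbered rats were at 23.7 to 171. Its adjusted p was 0.472 in all 10 rats (limma) and passed under 2 of 31, array weights and the olfactory bulb list as a covariate, with 0.0106 as the lowest value. For Ephx2, 4KAH35 lay just above the AKO-numbered rats, and for Ca3, 4KAH27 lay within their range.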
